A study of Kluyveromyces lactis with 17 samples.

Results

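The genes described here are 83 of the 5335 measured genes of the yeast Kluyveromyces lactis, chosen because they were higher in a strain without SIR2 than in wild type at a high level of nicotinic acid, and did not rise in wild type when nicotinic acid was scarce. K. lactis takes up nicotinic acid, a vitamin, and turns it into NAD+. The genes were chosen by the deposited normalized read counts, on the scale log2(group mean + 10). A gene was kept where sir2Δ exceeded WT by at least 0.8 at 400 µg/L and where WT at 15 µg/L exceeded WT at 400 µg/L by at most 0.3. The 30 genes nearest each chromosome end (360 genes in all) and 15 named genes of well-known responses, such as the α mating-type genes, GAL1 and POX1, were left out. Of the genes that remained, 288 met the strain threshold, and 83 of these also met the WT threshold.

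RNA from whole cultures was sequenced after poly(A) selection. The sir2Δ strain was LRY2993 (MATα sir2Δ hmlΔ hmrΔ), and the WT strain was LRY2992 (MATa SIR2 hmlΔ hmrΔ). Both strains therefore lack the silent mating-type loci, and they differ in mating type as well as in SIR2, so the 2 differences cannot be told apart. Each genotype was represented by 1 strain. Cultures of each strain were grown overnight at 400 µg/L and then held for 4 h at 15, 45, 135 or 400 µg/L, with 2 replicates in each of the 8 groups. In RNA from whole cultures, more cells that express a gene and more RNA per cell cannot be told apart.

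Sir2 is a deacetylase that removes acetyl groups from histones and uses up NAD+ in doing so. In budding yeasts it keeps chromatin at silent loci and near chromosome ends closed to transcription, and both its loss and a shortage of NAD+ can raise the transcripts of genes it silences. A gene that is higher without Sir2 but not in wild type at low nicotinic acid departs from that shared pattern. The roles given below are those known from Saccharomyces cerevisiae genes of the same name. For the 34 genes without a symbol no role is given.

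The libraries matched their labels. The SIR2 gene, KLLA0_F14663g, had 22.7 to 86.9 normalized counts in the 8 sir2Δ libraries (median 33.0), against 3488 to 4846 in the 9 WT libraries (median 4730). HMLALPHA1, which encodes a regulator of α cells, had 2383 to 2649 in sir2Δ (median 2506), against 8.19 to 51.4 in WT (median 16.8). By the labels the silent locus HML is deleted in both strains, so this gene serves here as a mark of the MATα mating type. It is not a measure of silencing at HML. Total counts were 24663143 to 38246270 reads over 17 libraries. WT at 400 µg/L had 3 libraries, named 1, 1R and 2. Libraries 1 and 1R carry a mark of resubmission in their labels, which do not say why. Libraries 1R and 2 gave the WT mean at 400 µg/L used in the choice. Library 1 stood apart from 1R and 2 in a way that follows coding length, and neither the choice of genes nor the tests use it. Against library 1 alone, 34 of the 83 genes would have reached the strain threshold of 0.8, with a median of 0.58, and 8 would have been below 0.

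The values that chose the genes are a description and are not tested. On the scale of the choice, sir2Δ exceeded WT at 400 µg/L by 0.80 to 2.21, with a median of 0.96. The difference was at least 1 in 35 genes and at least 2 in KLLA0_F26818g (2.21) and KLLA0_F07348g (2.03). In WT, the level at 15 µg/L minus that at 400 µg/L ran between -0.90 and 0.30 with a median of 0.00. It was below -0.3 in 12 genes, KLLA0_C18117g lowest, and within 0.3 of 0 in the other 71. Just inside the strain threshold lay KLLA0_B04466g at 0.80, KLLA0_D03520g at 0.803 and PEX21 at 0.808. Just outside lay YIM1 at 0.799, KLLA0_B02376g at 0.799 and KLLA0_A10945g at 0.793. At the WT threshold, KLLA0_C01562g (0.299), DPI8 (0.274) and MLH2 (0.272) were just inside, and UBC13 (0.311), POT1 (0.333) and KLLA0_D15521g (0.338) just outside.

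Of the 83 genes, 78 are protein coding and 5 are noncoding, namely 2 tRNAs, 2 small nucleolar RNAs and RPM1. RPM1, the RNA of mitochondrial RNase P, the tRNA gene trnC and VAR1, which encodes a mitochondrial ribosomal protein, lie on the mitochondrial genome. The 80 nuclear genes were spread over the 6 chromosomes, with 6 of 470 genes away from the ends on chromosome A, 12 of 597 on B, 14 of 804 on C, 8 of 825 on D, 20 of 1057 on E and 20 of 1189 on F. Only FOX2 with QCR10, and KLLA0_F19360g with KLLA0_F19371g, were next to each other by locus number.

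The libraries at 45 and 135 µg/L took no part in the choice, so they were used to ask whether the same genes were higher in sir2Δ there. At 135 µg/L, 67 of the 83 genes were higher in sir2Δ than in WT, or 80.7%, where 18.7% of all 5222 genes tested were higher. At 45 µg/L, 64 were higher, or 77.1%, where 22.6% of all genes were. Both levels called 61 genes higher, or 73.5%, against 14.4% of all genes. The median log2 fold change of the 83 genes came to 0.70 at 135 µg/L and 0.74 at 45 µg/L, beside -0.01 and 0.00 over all genes tested. A call is an adjusted p under 0.05 in edgeR's quasi-likelihood test with Benjamini-Hochberg adjustment over the 5222 genes, all 83 of which passed the filter on low counts. None of the 83 was called lower at either level in this edgeR fit, by DESeq2 or at an unadjusted p under 0.05 in this fit. Of all genes, 17.2% were called lower at 135 µg/L and 20.7% at 45 µg/L. Some alternative edgeR fits did call a few of the 83 genes lower, as given in the section on processing.

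The replicates can be read directly. Both sir2Δ libraries lay above both WT libraries in 78 of the 83 genes at 135 µg/L, where 37.6% of all genes did so, and in 67 at 45 µg/L, where 30.6% did. At 135 µg/L, both sir2Δ libraries were below both WT libraries for KLLA0_C18117g, and the groups overlapped in the other 4. At 45 µg/L the groups overlapped in 16 genes. On the scale of the choice, the median of sir2Δ minus WT was 0.64 at 15, 0.71 at 45, 0.67 at 135 and 0.96 at 400 µg/L, and the number of genes at or above 0.8 was 25, 34, 34 and 83 in the same order of levels. The value at 400 µg/L was set by the choice, and that at 15 µg/L shares its WT libraries with it.

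**Figure D1:**
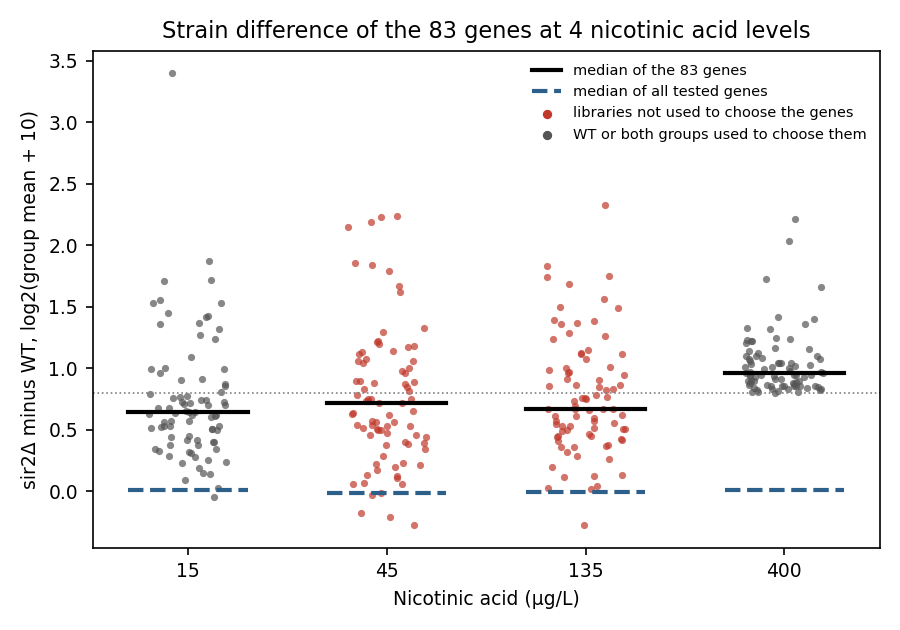
Difference between sir2Δ and WT, as log2(group mean + 10) of normalized counts, for each of the 83 genes (points) at 15, 45, 135 and 400 µg/L nicotinic acid; black bars are medians of the 83 genes, blue dashed bars medians of all tested genes, and the dotted line is the threshold of 0.8 applied at 400 µg/L. Red points come from libraries that played no part in the choice; their medians are 0.71 at 45 and 0.67 at 135 µg/L, while the medians of all tested genes lie near 0 at every level.

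Among the nuclear genes, the largest differences present at both levels came from a sulfur gene, a sporulation gene and several genes without a symbol. KLLA0_B09064g had 31810 and 33030 normalized counts in sir2Δ at 45 µg/L, against 6556 and 7189 in WT, and 27718 and 33528 in sir2Δ at 135 µg/L, against 6055 and 6151 in WT. Its log2 fold changes at 45 and 135 µg/L were 2.25 ± 0.12 and 2.32 ± 0.12 (SE; edgeR adjusted p = 1.3e-10 and 4.7e-11). Its groups were far apart at both levels. KLLA0_C01001g had 2501 and 2488 counts in sir2Δ at 45 µg/L, against 532 and 514 in WT, and 2118 and 2011 at 135 µg/L, against 567 and 654. KLLA0_B05885g had 1419 and 1280 counts in sir2Δ at 45 µg/L, against 327 and 267 in WT, and 1229 and 1308 at 135 µg/L, against 377 and 322. The 2 groups were well apart for both genes at both levels. The log2 fold changes at 45 and 135 µg/L were 2.27 ± 0.10 and 1.76 ± 0.10 for KLLA0_C01001g and 2.20 ± 0.14 and 1.86 ± 0.13 for KLLA0_B05885g. KLLA0_F26818g, with the largest value in the choice, had 10558 and 15519 counts in sir2Δ at 45 µg/L, against 4572 and 6626 in WT, and 19098 and 19365 at 135 µg/L, against 7437 and 7294.

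Of the 83 genes, 3 belong to sulfur metabolism, and all 3 were higher in sir2Δ at both levels. For this and the other groups by role, the share to set beside such counts is 73.5% over the 83 genes and 14.4% over all genes tested. Both sir2Δ libraries lay above both WT libraries in 37.6% of all genes at 135 µg/L and 30.6% at 45 µg/L. MET1 encodes a methyltransferase that makes siroheme, the cofactor of sulfite reductase. It had 8993 and 9651 normalized counts in sir2Δ at 45 µg/L, against 2039 and 2042 in WT, and 6602 and 7130 in sir2Δ at 135 µg/L, against 2127 and 1946 in WT. The log2 fold changes were 2.21 ± 0.10 and 1.75 ± 0.10 (edgeR adjusted p = 1.2e-11 and 6.8e-11). MET28 encodes a transcription factor that helps switch on the sulfur amino acid pathway. It had 5219 and 5970 counts in sir2Δ at 45 µg/L, against 1747 and 1759 in WT, and 4706 and 4696 at 135 µg/L, against 1694 and 1634. DUG3 encodes a subunit of the complex that breaks down glutathione, a sulfur-containing peptide. It had 5970 and 7449 counts in sir2Δ at 45 µg/L, against 2075 and 2274 in WT, and 5606 and 6125 at 135 µg/L, against 2261 and 2271. For all 3 genes the lowest sir2Δ library lay above the highest WT library at both levels.

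Other genes of the pathway were measured too. Of 73 tested genes on a list of amino acid biosynthesis genes, 37 were higher and 4 lower in sir2Δ at 135 µg/L, and 45 were higher and 9 lower at 45 µg/L, with median log2 fold changes of 0.23 and 0.30. Within that list 16 are MET, CYS and STR genes, a group picked after their values were seen. Of these, 13 were higher and 2 lower at 135 µg/L, and 14 were higher and 2 lower at 45 µg/L. STR3, which makes homocysteine from cystathionine, had a log2 fold change of 1.60 ± 0.10 at 135 µg/L. MET2, which makes the carbon acceptor for sulfide, had 1.32 ± 0.09, and MET5, a subunit of sulfite reductase, had 1.03 ± 0.10. The genes that were lower were MET6, the methionine synthase, at -0.44 ± 0.12, and MET13, which supplies its methyl donor, at -0.32 ± 0.11. MET1 alone of these 16 is among the 83 genes.

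The 4 genes known from sporulation were higher in sir2Δ at both levels. SPR3, a septin made during sporulation, had 2091 and 2011 normalized counts in sir2Δ at 45 µg/L, against 590 and 526 in WT, and 1925 and 1930 at 135 µg/L, against 562 and 626. Its log2 fold changes were 1.89 ± 0.10 and 1.70 ± 0.10 (edgeR adjusted p = 1.2e-10 and 2.3e-10). IME2, a protein kinase that drives cells into meiosis, had 985 and 856 counts in sir2Δ at 45 µg/L, against 431 and 441 in WT, and 1087 and 853 at 135 µg/L, against 504 and 483. GAS2 and GAS4 encode enzymes that build the glucan layer of the spore wall. GAS2 had 930 and 996 counts in sir2Δ at 45 µg/L, against 485 and 343 in WT, and 955 and 1009 at 135 µg/L, against 457 and 465. GAS4 had 1550 and 1624 counts in sir2Δ at 45 µg/L, against 922 and 780 in WT, and 1724 and 1717 at 135 µg/L, against 853 and 855. The groups did not overlap for any of the 4 genes. None of them was near 0 in WT at these levels. Of 51 tested genes on a meiosis and sporulation list, which holds 3 of the 83 genes, 28 were higher and 2 lower at 135 µg/L and 33 were higher and 2 lower at 45 µg/L, with medians of 0.70 and 0.68.

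Genes for fatty acid breakdown in peroxisomes were also among those higher at both levels. FOX2 encodes an enzyme with more than 1 activity in the β-oxidation cycle. It had 6043 and 6404 normalized counts in sir2Δ at 45 µg/L, against 2893 and 2747 in WT, and 6838 and 8591 at 135 µg/L, against 3466 and 3492. MDH3, the peroxisomal malate dehydrogenase that turns NADH back into NAD+, had 18706 and 23077 counts in sir2Δ at 45 µg/L, against 10424 and 12184 in WT, and 22441 and 22209 at 135 µg/L, against 11968 and 11894. IDP3, the peroxisomal isocitrate dehydrogenase that supplies NADPH for unsaturated fatty acids, had 14786 and 15226 counts in sir2Δ at 45 µg/L, against 6550 and 6768 in WT, and 19975 and 18889 at 135 µg/L, against 7322 and 7798. PEX21, which helps bring some enzymes into peroxisomes, had 3054 and 3473 counts in sir2Δ at 45 µg/L, against 1933 and 1773 in WT, and 4536 and 4655 at 135 µg/L, against 2276 and 2361. No sir2Δ library of these 4 genes fell within the WT range at either level. The log2 fold changes of the 4 genes were 0.83 to 1.19 at 45 µg/L and 0.90 to 1.36 at 135 µg/L. The 37 tested genes of a list of fatty acid oxidation and peroxisome genes were mixed. At 135 µg/L 12 were higher and 4 lower, and at 45 µg/L 13 were higher and 3 lower, with medians of 0.04 and 0.15.

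The 9 nuclear genes known to act in mitochondria had smaller differences. Log2 fold changes ran between 0.12 and 0.76 at 135 µg/L and between -0.20 and 0.76 at 45 µg/L, and 7 of the 9 were higher at both levels. SDH3, a membrane subunit of succinate dehydrogenase, had 27016 and 31315 normalized counts in sir2Δ at 45 µg/L, against 18524 and 20770 in WT, and 33850 and 34253 at 135 µg/L, against 20207 and 19858. QCR10, a subunit of the cytochrome bc1 complex, had 7617 and 9525 counts in sir2Δ at 45 µg/L, against 6098 and 6968 in WT, and 9729 and 10679 at 135 µg/L, against 6776 and 6726. The QCR10 groups were separate at both levels, but its call at 45 µg/L was lost without sir2Δ library 6 (log2 fold change 0.24) and without WT library 5 (0.30). COX16, which acts in the assembly of cytochrome c oxidase, MIM1, which inserts proteins into the outer membrane, HSP10, a chaperonin subunit, ADK2, an adenylate kinase, and MBR1 were the other 5 called at both levels. FIS1, which acts in mitochondrial fission, had 742 and 944 counts in sir2Δ at 45 µg/L, against 895 and 1057 in WT, and 1000 and 1032 at 135 µg/L, against 920 and 948. It was called at neither level, and nor was MDM35, a chaperone of lipid transfer proteins. Of 33 tested genes on a respiratory chain and ATP synthase list, 24 were higher at 135 µg/L, and 20 were higher and 1 lower at 45 µg/L, with medians of 0.36 and 0.30. Of 19 tested genes of the TCA cycle, 14 were higher at 135 µg/L and 12 at 45 µg/L.

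Redox balance is the field of 3 of the genes. OYE2, an NADPH oxidoreductase, had 27969 and 30397 normalized counts in sir2Δ at 45 µg/L, against 14043 and 17322 in WT, and 26225 and 26882 at 135 µg/L, against 14560 and 15464. CCS1, the copper chaperone of superoxide dismutase, had log2 fold changes of 0.36 ± 0.10 at 45 µg/L and 0.50 ± 0.09 at 135 µg/L and was higher at both. TRX2, a cytosolic thioredoxin, had 7331 and 9470 counts in sir2Δ at 45 µg/L, against 5871 and 8793 in WT. These groups overlapped, and TRX2 was called at 135 µg/L only, where the call was lost on leaving out any 1 of the 4 libraries (log2 fold change 0.38 to 0.51). Of 26 tested genes on a stress and redox list, 16 were higher and 2 lower at 135 µg/L, and 20 were higher and 1 lower at 45 µg/L.

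The 3 genes of DNA repair were higher in sir2Δ at both levels. RAD59, which pairs DNA strands in recombination, had 2206 and 2660 normalized counts in sir2Δ at 45 µg/L, against 888 and 1084 in WT, and 1890 and 2130 at 135 µg/L, against 817 and 823. RAD55, a protein of recombinational repair, had 2626 and 2223 counts in sir2Δ at 45 µg/L, against 1655 and 1630 in WT, and 2879 and 2525 at 135 µg/L, against 1771 and 1861. MLH2, a mismatch repair protein, had log2 fold changes of 0.81 ± 0.14 and 0.83 ± 0.13 at 45 and 135 µg/L (edgeR adjusted p = 9.3e-05 and 7.1e-05). The difference of RAD59 was larger than that of RAD55, at 1.31 ± 0.11 and 1.29 ± 0.11 against 0.58 ± 0.13 and 0.57 ± 0.12, though these values of single genes were not tested against each other. In the control of gene expression, HFI1, an adaptor subunit of the SAGA coactivator, had 2850 and 3107 counts in sir2Δ at 45 µg/L, against 1291 and 1272 in WT. PRP21, a splicing factor, had 3163 and 3253 counts in sir2Δ at that level, against 2008 and 1807 in WT. Both were also higher at 135 µg/L, by 1.12 ± 0.09 and 0.92 ± 0.08 on the log2 scale.

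**Figure D2:**
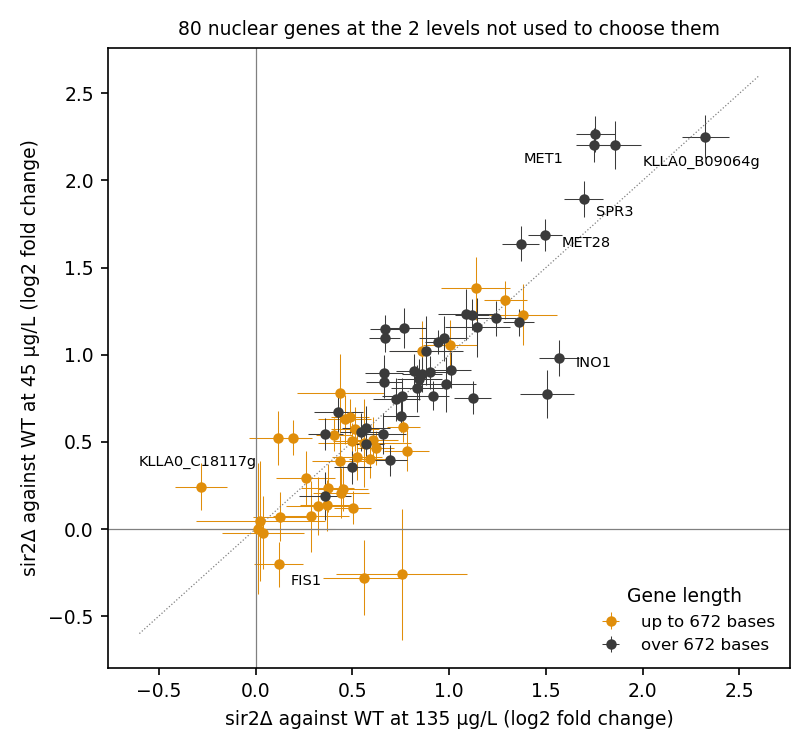
Log2 fold change of sir2Δ against WT at 135 µg/L (horizontal) and 45 µg/L (vertical) with standard errors for the 80 nuclear genes, coloured by gene length; the dotted line marks equal values. Genes over 672 bases lie to the upper right and all have positive values at both levels, and RGD3 has the lowest of their values at 45 µg/L, 0.19 ± 0.14; the genes with a negative value at either level, FIS1 and KLLA0_C18117g among them, are up to 672 bases long; the 3 genes of the mitochondrial genome are not drawn.

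The genes on either side of the deleted gene were both among the 83. By locus number TRS65, a subunit of the TRAPPII trafficking complex, comes just before SIR2, and RTG1, a transcription factor of the signal from mitochondria to nucleus, just after it. TRS65 had 838 and 828 normalized counts in sir2Δ at 45 µg/L, against 399 and 358 in WT, and 718 and 691 at 135 µg/L, against 429 and 395.98. RTG1 had 672 and 573 counts in sir2Δ at 45 µg/L, against 274 and 211 in WT, and 677 and 626 at 135 µg/L, against 325 and 266. The log2 fold changes were 1.15 ± 0.11 and 0.77 ± 0.11 for TRS65 and 1.38 ± 0.18 and 1.14 ± 0.18 for RTG1 (edgeR adjusted p at most 5.6e-05). CLC1, the clathrin light chain gene beyond TRS65, was also higher, by 0.51 ± 0.09 and 0.49 ± 0.09, and is not among the 83 genes. The next genes outward lay between -0.30 and 0.26 at these levels. Whether the construct at the deleted locus has a part in the values of TRS65 and RTG1 was not tested.

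**Figure D3:**
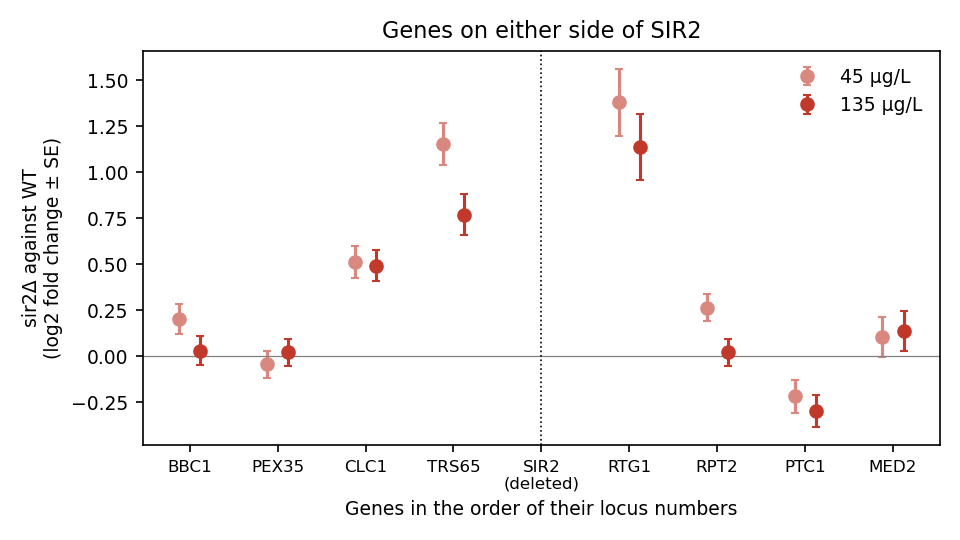
Log2 fold change (± SE) of sir2Δ against WT for the 4 genes on each side of SIR2 in the order of their locus numbers, at 45 and 135 µg/L nicotinic acid; SIR2 itself, deleted in sir2Δ, is marked by the dotted line and not drawn. TRS65 and RTG1 are the highest, at 0.77 to 1.38, CLC1 is near 0.5, and the other 5 genes lie between -0.30 and 0.26.

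Many of the genes were short, and those called at neither of the 2 other levels were all among the short or noncoding ones. The 77 nuclear protein-coding genes had a median coding length of 807 bases, beside 1227 bases over 5070 tested genes, and 55 of the 77 were shorter than that median. In the shortest of 5 equal bins of coding length, 120 to 672 bases, lay 34 of the 77 genes, and in the longest, 2058 to 14748 bases, 3. Of the 43 genes longer than 672 bases, 43 were higher in sir2Δ at 135 µg/L and 42 at 45 µg/L, RGD3 being the exception, where 9.08% to 23.6% of all tested genes were at 135 µg/L and 20.6% to 27% at 45 µg/L in the 4 bins of longer genes. Of the 34 shorter ones, 21 were higher at 135 µg/L, 19 at 45 µg/L and 17 at both, where 20.3%, 17.4% and 13.3% of all tested genes of that length were. The 13 genes called at neither level were 11 protein-coding genes of at most 672 bases, the tRNA KLLA0_B05764r and SNR17. At 45 µg/L, replicates of short genes could lie far apart in both strains. OST5, of 375 bases, had 405 and 571 counts in sir2Δ libraries 5 and 6, and 379 and 551 in WT libraries 5 and 6. KLLA0_A03223g, of 2034 bases, was higher in library 5, with 1932 and 1654 counts in sir2Δ and 1311 and 967 in WT. OYE2, of 1197 bases, was higher in library 6 in both strains. Whether the spread between these libraries follows coding length was not tested.

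The strain difference of all genes also moved with length at 400 µg/L, where the genes were chosen. On the scale of the choice, the median of sir2Δ minus WT over all tested protein-coding genes was 0.30 in the shortest bin and -0.22 in the longest at 400 µg/L. Against library 1 of WT, the 2 medians were -0.28 and 0.22. With the libraries used, it was 0.08 and -0.10 at 135 µg/L, -0.06 and -0.00 at 45 µg/L, and 0.06 and -0.06 at 15 µg/L. For the chosen genes of the shortest bin the median was 0.52 at 15, 0.42 at 45, 0.48 at 135 and 0.97 at 400 µg/L. For the 16 genes of 1041 to 1452 bases it was 0.80, 0.94, 0.89 and 0.95. The part of this trend in the choice of the short genes was not tested. ECM15, which had 4021 and 4640 counts in sir2Δ at 400 µg/L, against 2115 and 2792 in WT libraries 1R and 2, is an example. At 135 µg/L it had 3368 and 3412 counts in sir2Δ, against 3151 and 3042 in WT, and at 45 µg/L 3103 and 3726, against 2811 and 3740.

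**Figure D4:**
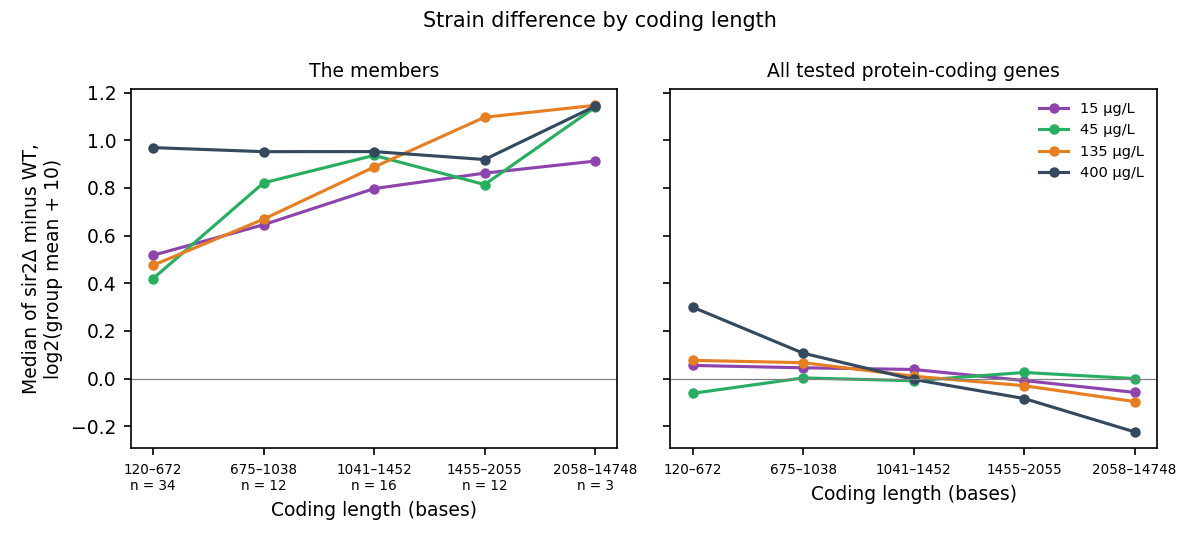
Median of sir2Δ minus WT, as log2(group mean + 10), in 5 bins of coding length at 15, 45, 135 and 400 µg/L, for the 77 chosen nuclear protein-coding genes (left, with the number in each bin) and for all tested protein-coding genes (right). At 400 µg/L the line of all genes falls over the bins, with 0.30 in the shortest and -0.22 in the longest; the chosen genes of the shortest bin have 0.97 at 400 µg/L and 0.42 to 0.52 at the other levels.

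In WT, the genes had been chosen for not rising at 15 µg/L, with no limit on a fall. The WT libraries at 135 and 45 µg/L were not used for this, but they belong to the same strain and series of levels. The shares of rises and falls between 135 and 45 µg/L were therefore set in part by the choice. None of the 83 genes was called higher in WT at 45 than at 135 µg/L by edgeR or DESeq2, where 6.03% of all genes were called higher. At an unadjusted p under 0.05 in edgeR's test, 1 of the 83 genes was higher, and 724 of all 5222 genes tested were. Lower at 45 µg/L were 8 genes, against 2.87% of all genes, and the median over the 83 was -0.14. KLLA0_C18117g had 5688 and 6671 normalized counts in WT at 45 µg/L, against 11644 and 11789 at 135 µg/L, a log2 fold change of -0.93 ± 0.14 (edgeR adjusted p = 4.0e-04). KLLA0_C11143g had 1435 and 1436 counts at 45 µg/L, against 2065 and 2225 at 135 µg/L, a log2 fold change of -0.59 ± 0.08 (adjusted p = 1.2e-04). KLLA0_F07348g, at -0.75 ± 0.17, and KLLA0_D06083g, at -0.69 ± 0.15, were lower too. The call of KLLA0_F07348g was lost without any 1 of its 4 libraries (adjusted p 0.066 to 0.096), and that of KLLA0_D06083g without WT library 4 (0.083) or 5 (0.058). Without WT library 3 there were 5 calls and without library 4 there were 3, in both cases all lower.

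The 205 genes that met the strain threshold but had a WT rise above 0.3 serve as the nearest comparison. Higher in sir2Δ at 135 µg/L were 170 of the 205, and at 45 µg/L 167, with medians of 1.08 and 0.91. The 83 genes and these 205 were called higher in sir2Δ at shares of 80.7% against 82.9% at 135 µg/L and 77.1% against 81.5% at 45 µg/L. In WT at 45 against 135 µg/L, none of the 83 genes and 68 of the 205 were higher, and 8 and 4 were lower. The WT threshold used other libraries of the same strain, so this split of the groups was set in part by the choice, and it was not tested. The change between 135 and 45 µg/L differed between the strains in 2 of the 83 genes, INO1 and KLLA0_F19360g, where 2.93% of all genes did, and in 39 of the 205.

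Within sir2Δ at 45 against 135 µg/L, the median over the 83 genes was -0.16, beside 0.01 over all genes tested. Negative values were found in 64 of the 83 genes and in 2424 of all 5222 genes tested. In WT between the same levels, the median over the 83 was -0.14, with negative values in 59 of the 83 and in 2477 of all genes. The genes were chosen as high in sir2Δ at 400 µg/L, and the part of that choice in these falls was not tested. In sir2Δ, at an unadjusted p under 0.05 in edgeR's test, 22 of the 83 genes were lower at 45 µg/L and 6 higher. Of all 5222 genes tested, 400 were lower and 390 higher at that threshold. After adjustment MET1 was higher at 45 µg/L, by 0.45 ± 0.09, and IDP3 (-0.37 ± 0.08) and KLLA0_C14949g (-0.37 ± 0.09) were lower, which makes 3 calls, where 2.3% of all genes were called. These 3 calls were absent without either sir2Δ library at 135 µg/L, and 11 genes were called without sir2Δ library 6. At 15 against 135 µg/L, 3 genes were higher and 11 lower in sir2Δ, where 7.68% of all genes were higher and 3.85% lower. The median over the 83 genes was -0.11. These comparisons and those of the strains at 135 µg/L share the sir2Δ libraries at 135 µg/L.

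KLLA0_B09064g had the largest of the rises at 15 µg/L. It had 57249 and 76408 normalized counts in sir2Δ at 15 µg/L, 31810 and 33030 at 45, 27718 and 33528 at 135, and 21843 and 21380 at 400 µg/L. In WT the same levels gave 6290 and 6374, 6556 and 7189, 6055 and 6151, and 10100 and 8619 counts. The log2 fold change at 15 against 135 µg/L in sir2Δ was 1.13 ± 0.12 (edgeR adjusted p = 1.1e-05). The gene thus had its highest level in sir2Δ at the lowest nicotinic acid level, while the WT values at that level lay within the range of WT at 45 and 135 µg/L. DPI8 was higher as well, with 5935 and 5923 counts in sir2Δ at 15 µg/L, against 3163 and 3710 at 135 µg/L, a log2 fold change of 0.79 ± 0.10. Its level in sir2Δ at 400 µg/L was 5903 and 6742 counts, so that 15 and 400 µg/L were both above 45 and 135 µg/L.

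The genes that were lower in sir2Δ at 15 µg/L included members of the groups above. PEX21 had 3080 and 1967 normalized counts at 15 µg/L, against 4536 and 4655 at 135 µg/L, a log2 fold change of -0.87 ± 0.16 (edgeR adjusted p = 0.0019). Its 2 libraries at 15 µg/L overlapped the WT libraries at that level, which had 2577 and 1971 counts, and in a fit of only the 2 groups compared the adjusted p was 0.21. IDP3 was lower by -0.49 ± 0.08, MET1 by -0.36 ± 0.09, MET28 by -0.34 ± 0.09 and DUG3 by -0.31 ± 0.10. The 3 sulfur genes nonetheless had 3509 to 5535 counts in sir2Δ at 15 µg/L, against 1972 to 3272 in WT. RAD55 had 2055 and 1614 counts in sir2Δ at 15 µg/L, against 2879 and 2525 at 135 µg/L, and also overlapped WT at 15 µg/L, at 1782 and 1446. KLLA0_D15576g, at -0.76 ± 0.21, and KLLA0_E16303g, at -0.52 ± 0.12, completed the largest falls. Of the sir2Δ libraries at 15 µg/L, number 8 carries a mark of resubmission in its label. Without it 4 of the 83 genes were called, and without sir2Δ library 3 or 4 at 135 µg/L 5 were, in place of 14. The calls of RAD55 and KLLA0_E16303g were among those lost without library 8 (adjusted p 0.15 and 0.11), and KLLA0_D15576g was lost without any 1 of the 4 libraries.

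INO1, which makes inositol phosphate, the first step of inositol synthesis, had values of its own at each level. In sir2Δ it had 4238 and 5248 normalized counts at 15 µg/L, 2911 and 2930 at 45, 3675 and 3926 at 135, and 4386 and 4285 at 400 µg/L. In WT it had 1523 and 1754, 1432 and 1559, 1333 and 1229, and 2597 and 2343 counts at the same levels. In log2 fold change, sir2Δ exceeded WT by 0.98 ± 0.10 at 45 µg/L and by 1.57 ± 0.10 at the 135 µg/L level (edgeR adjusted p = 4.2e-07 and 8.9e-10). Its rise in sir2Δ at 15 against 135 µg/L was 0.32 ± 0.10 with an adjusted p of 0.045, and was not called without library 8 (adjusted p = 0.50), library 3 (adjusted p = 0.29) or library 4 (adjusted p = 0.11). INO1 is on a list of ergosterol and lipid genes whose other members mostly did not share its direction. Of the 34 tested, 5 were higher and 14 lower at 135 µg/L, and 7 were higher and 15 lower at 45 µg/L. YDC1, a ceramidase, was the other lipid gene among the 83, with log2 fold changes of 0.84 ± 0.09 at 45 µg/L and 0.66 ± 0.09 at 135 µg/L.

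**Figure D5:**
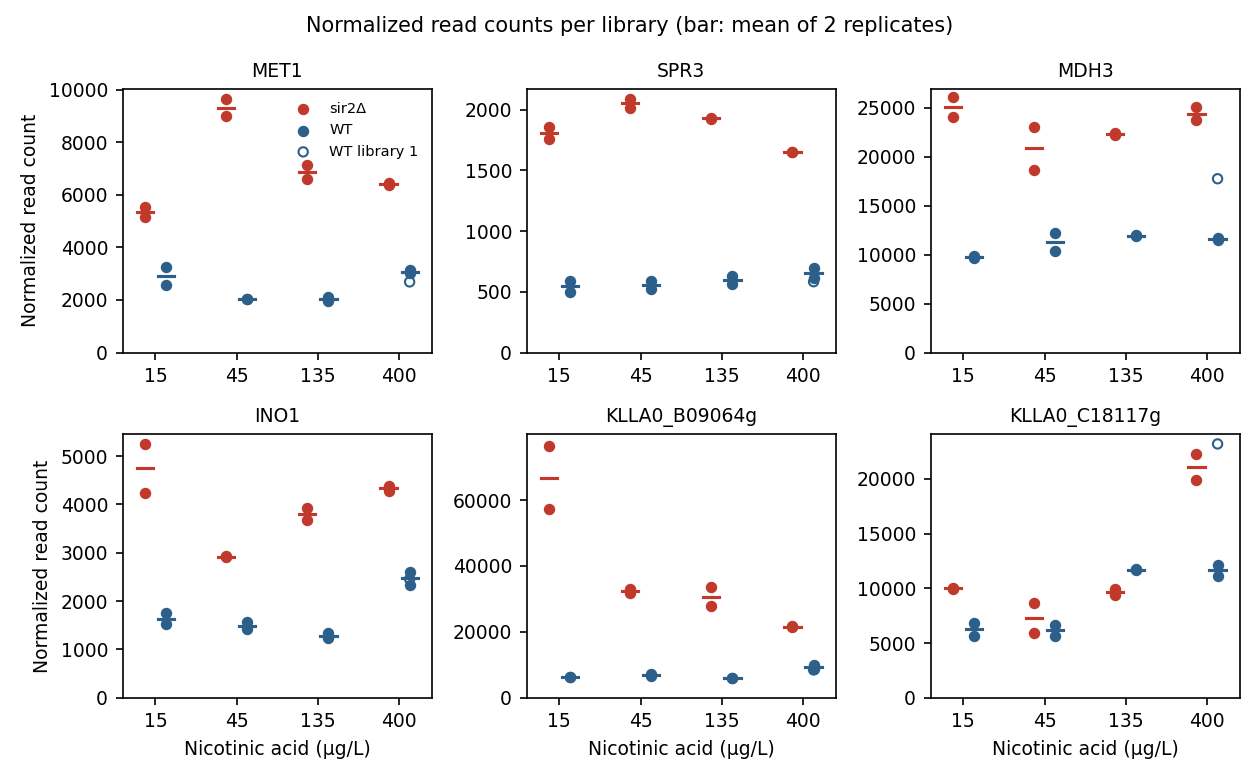
Normalized read counts of 6 genes in each library at 15, 45, 135 and 400 µg/L nicotinic acid, sir2Δ in red and WT in blue, with bars for the mean of 2 replicates; the open circle is WT library 1 at 400 µg/L, which is not in the mean. MET1, SPR3, MDH3 and INO1 lie higher in sir2Δ at all 4 levels, and KLLA0_B09064g is highest in sir2Δ at 15 µg/L (57249 and 76408). KLLA0_C18117g has sir2Δ above WT at 15 µg/L but below WT at 135 µg/L. At 400 µg/L its sir2Δ libraries (22326 and 19865) lie above WT libraries 1R and 2 but below WT library 1 (23204).

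Some of the genes with very many reads have no symbol. At 135 µg/L KLLA0_F21010g had 786311 and 753390 normalized counts in sir2Δ, against 451621 and 476650 in WT. KLLA0_E16303g had 741965 and 757101 counts in sir2Δ, against 417931 and 413983 in WT. KLLA0_F18260g had 394740 and 394568 counts in sir2Δ, against 214802 and 219520 in WT. All 3 were called higher at both levels. Over the 34 genes without a symbol, 25 were higher at both levels, with median log2 fold changes of 0.70 at 135 µg/L and 0.71 at 45 µg/L. The share called higher at both levels was 73.5% over the 83 genes and 14.4% over all genes tested. Of the 83 genes, 12 were on any of 20 gene lists set up by function and 71 were on none.

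The genes of the mitochondrial genome and the small RNAs rest on few reads in these poly(A)-selected libraries. RPM1 had 7 and 4 reads in sir2Δ at 45 µg/L, against 0 and 0 in WT, and 12 and 12 at 135 µg/L, against 2 and 0. It was called at 135 µg/L only, and lost that call on leaving out any 1 library. The tRNA gene trnC had 23 and 27 reads in sir2Δ at 45 µg/L, against 2 and 2 in WT, and 30 and 37 at 135 µg/L, against 7 and 6. VAR1 had 56 and 17 reads in sir2Δ at 45 µg/L, against 2 and 7 in WT, and 34 and 49 at 135 µg/L, against 9 and 14. Both were called higher at both levels, and the VAR1 calls were lost without sir2Δ library 5 at 45 µg/L and without sir2Δ library 4, WT library 3 or WT library 4 at 135 µg/L. SNR17, the U3 small nucleolar RNA, had 244 and 138 reads in sir2Δ at 45 µg/L, against 125 and 355 in WT, and 172 and 123 at 135 µg/L, against 148 and 161. Its log2 fold changes were 0.00 ± 0.38 and 0.01 ± 0.40, and their sign turns with the scaling of the libraries.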

How the data were processed

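Read counts per gene in 17 libraries were deposited by the authors as whole numbers. A second deposited table gives a normalized signal, and its values are those counts over a size factor for each library. The submitters' processing notes name DESeq2, featureCounts, SAMtools, Bowtie2, cutadapt, MultiQC and FastQC. For versions, settings, genome build, strandedness and multiply matching reads, the sources used here give nothing, so reads of overlapping, antisense or near-identical genes may be shared or lost.

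Normalized values chose the genes and are printed per library. Tests used the deposited counts in edgeR 4.0.16 (R 4.3.3): filterByExpr at a minimum count of 10 (5222 genes tested, 113 removed), TMM scaling, 1 mean for each of 8 groups over 16 libraries, robust quasi-likelihood fit with 8 residual degrees of freedom, and Benjamini-Hochberg adjustment over all genes tested. Fold changes are log2 values ± SE. The SE was derived as the absolute log2 fold change over the square root of the test's F statistic. Library 1 of WT at 400 µg/L was left out of the fit. The series text calls the replicates independent and biological. Comparisons that use WT at 15 or 400 µg/L or sir2Δ at 400 µg/L were not tested, since those libraries chose the genes.

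The genes and the gene lists were chosen with earlier results of these data known, and the groups by role were assembled once the genes were known. These groups were put together by hand and may leave out genes of the same role. Genes named with values were, by rule, the 12 with the largest smaller difference at 45 and 135 µg/L, the 6 lowest by mean difference, the largest called changes within a strain, members of the lists and neighbours. HFI1, PRP21, YDC1, RAD55 as a repair gene, MLH2, CCS1, RGD3, KLLA0_F21010g, KLLA0_F18260g, KLLA0_C14949g and the sulfur genes outside the 83 were named after their values were seen. Names and coding lengths come from a RefSeq table of assembly ASM251v1, where each of the 5335 identifiers was found and 4043 carry a symbol. No build is named for the counts, so no coordinates are given. KLLA0_F14663g, unnamed there, was taken as SIR2 from what is known of the gene. The test at 135 µg/L was also tried on counts simulated from the means and spread of these data, and the outcome is not given here. Alternatives were other scalings, no filter on low counts, DESeq2 1.42.0, library 1 summed with 1R, a fit of only the groups compared, the library number as a block, leaving out each library, and other settings of the rule.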

Additional observations from a re-analysis of the deposited data

Results flagged for a closer look

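Among the 83 genes, 2 changed differently in the 2 strains between 135 and 45 µg/L by the test of that difference itself (the interaction term in edgeR's quasi-likelihood test). The change of INO1 in sir2Δ minus that in WT was -0.59 ± 0.14 on the log2 scale (adjusted p = 0.033). In sir2Δ INO1 had 2911 and 2930 normalized counts at 45 µg/L, against 3675 and 3926 at 135 µg/L, and in WT it had 1432 and 1559 at 45 µg/L, against 1333 and 1229 at 135 µg/L. Neither the change within sir2Δ (-0.37 ± 0.10) nor that within WT (0.21 ± 0.10) passed the test alone. The adjusted p of the interaction was 0.0034 to 0.20 over the alternatives, and the call was lost with library 1 of WT at 400 µg/L summed in (0.053) and without sir2Δ library 3 (0.075), 4 (0.13) or 5 (0.051) or WT library 3 (0.075), 4 (0.20) or 6 (0.13).

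The change of KLLA0_F19360g in sir2Δ minus that in WT was 0.48 ± 0.11 (adjusted p = 0.016). In sir2Δ it had 9066 and 9989 normalized counts at 45 µg/L, against 8268 and 8830 at 135 µg/L, and in WT 4053 and 4613 at 45 µg/L, against 5324 and 5415 at 135 µg/L. The adjusted p was 0.0018 to 0.12 over the alternatives, and the call was lost in a fit of only the groups compared (0.12) and without sir2Δ library 3 (0.11) or WT library 3 (0.073) or 4 (0.088). Its neighbour among the 83 genes, KLLA0_F19371g, had an interaction of -0.10 ± 0.18, which did not pass.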

How the results depend on the processing

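The 67 calls at 135 µg/L and 64 at 45 µg/L were 57 to 60 and 58 to 69 when 1 library was left out, and 49 of the 61 genes called higher at both levels were so called in every fit run. Called lower was 1 of the 83 genes at 135 µg/L in a fit of only the groups compared, and 2 at 45 µg/L without sir2Δ library 6. Small counts of calls moved more. In sir2Δ at 45 against 135 µg/L there were 8 calls with DESeq2 and 0 in edgeR with only the groups compared, in place of 3, and 0 to 11 without 1 library. In sir2Δ at 15 against 135 µg/L there were 4 to 13 calls without 1 library, in place of 14, and in WT at 45 against 135 µg/L 3 to 9, in place of 8. The interaction had 6 calls with DESeq2, 1 with library 1 summed in, 1 with only the groups compared and 0 to 7 without 1 library, in place of 2. The rule kept 35 genes with a strain threshold of 1 and 40 with a WT threshold of 0. The cause of these changes was not tested.

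Library numbers are shared between strains. The deviations of same-numbered libraries from their group means had r = 0.195 at 15, 0.329 at 45, -0.0802 at 135 and 0.0442 at 400 µg/L. With 2 replicates per group, these values cannot show whether same-numbered libraries were handled together. With the library number as a block, 74 of the 83 genes were called at 135 µg/L and 69 at 45 µg/L, 1 of them lower at each level.

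All tested genes were fitted again in the alternatives, but changes of sign were looked for only among the genes named by rule. Of these, the sign turned for 6 where they were not called. SNR17 had -0.0153 at 135 µg/L with upper-quartile factors and -0.0050 with the replicate block, and at 45 µg/L -0.0092 with DESeq2 size factors, -0.0442 with upper-quartile factors, -0.0145 with DESeq2 and -0.0149 with only the groups compared; without 1 library it had -0.33 to 0.30 at 135 µg/L and -0.56 to 0.95 at 45 µg/L. KLLA0_C14916g had -0.0008 at 135 µg/L with upper-quartile factors, and without 1 library -0.0735 to 0.12 at 135 µg/L and -0.52 to 0.60 at 45 µg/L. Without 1 library, KLLA0_B04466g had -0.0330 to 0.11 and -0.33 to 0.37 at these levels, and at 45 µg/L KLLA0_C18117g had -0.0496 to 0.49, ECM15 -0.13 to 0.30 and TRX2, called at 135 µg/L only, -0.0609 to 0.54.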
